A study of Mus musculus with 7 samples.

Results

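The untreated PDKC1 cell line was compared with dissected mouse basal cell carcinoma, to describe which genes of the tumour the cultured carcinoma cells keep and which they lack. The comparison took 3 of the 7 arrays of the series, chosen by their titles: the single PDKC1 array at 0 h and both arrays titled Basal cell carcinoma, called tumour 1 and tumour 2 here. PDKC1 is labelled as a mouse basal cell carcinoma line, and its 0 h array is the control for cyclopamine, an inhibitor of the Hedgehog transducer Smo, in cells plated in conditioned medium. Dissected tumours were hybridised without culture. Total RNA went through the same labelling protocol, from 2000 ng for the line and 100 ng for each tumour. Normal epidermis of newborn (P0) mice, on 2 arrays and also from 100 ng, added only to the estimate of the spread. The sources used here do not give the genotype, the strain, the age of the tumour-bearing animals, the driver of the tumours, or whether the line came from these tumours. Of 45101 probe sets, 34945 belonged to 1 gene each and stood for 18193 genes, all of which entered the comparison.

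Basal cell carcinoma is a skin cancer driven by the Hedgehog pathway. The ligand binds the receptor Ptch1 and so releases Smo, which acts through the primary cilium to activate the GLI transcription factors, and Gli1, Ptch1 and Hhip are themselves targets whose levels are read as pathway activity. The tumour cells resemble basal keratinocytes, which carry the keratins Krt5 and Krt14 and the factor p63, and the follicle epithelium. A dissected tumour also holds fibroblasts, vessels, immune cells, pigment cells and neighbouring skin, whereas a culture holds the line. In such bulk samples, fewer cells of a type and less RNA per cell cannot be told apart.

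Each array gives a linear intensity per probe set, and differences are on the scale log2(intensity + 16), line minus the mean of the 2 tumours, with the standard error (SE). The line had no replicate, so limma took the spread from the tumour and epidermis pairs and assumed that the line array varies like them. The labels do not say that the replicates came from separate animals, and the p-values then measure only the spread between these arrays, which may be technical. A gene is called higher or lower at a limma adjusted p under 0.05. Intensities of different genes are not comparable with each other, because each probe set has its own sensitivity.

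The line and tumour arrays also differed in their control ratios. The ratio of the 3′ to the 5′ probe set of Actb was 1.15 on the line array, 11.3 on tumour 1 and 93.1 on tumour 2, and that of Gapdh was 0.726, 10.6 and 15.4. The bacterial transcripts added before labelling differed in the same way: the ratio for Dap was 2.45 on the line array, 38.3 on tumour 1 and 40.4 on tumour 2, and on the epidermis arrays it was 54.0 and 33.7. Every one of the 6 control transcripts thus had a larger ratio on both tumours than on the line. Probe sets that lie far from the 3′ end of a transcript can read low on arrays with large ratios, so this bears most on genes that read higher in the line. Its part in the results was not tested, and neither RNA quality nor the amount of input RNA can be told apart from the groups. For called genes with several probe sets whose values are given below, the number called the same way follows. For genes near the tumour level, any probe set that was called is mentioned. Intensities below the median probe set of their array (78.3 on the line, 118.4 and 128.2 on the tumours) lie near background, so differences that rest on one depend on the pseudocount and no fold is given for them.

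**Figure D1:**
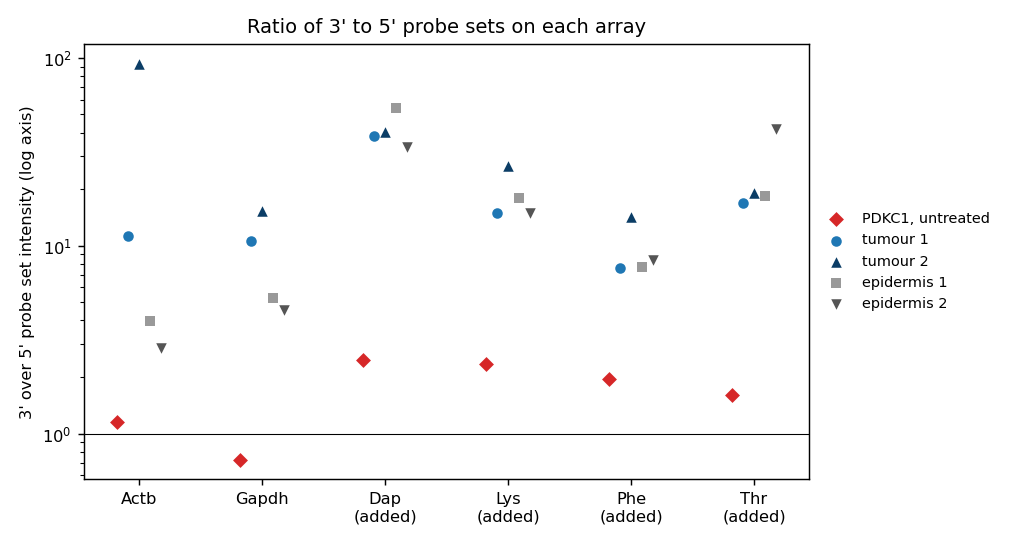
Ratio of the 3′ to the 5′ probe set (log axis) of 2 mouse transcripts and 4 added bacterial transcripts on the line, tumour and epidermis arrays, 1 point per array. The line stays between 0.726 and 2.45, and both tumours lie above it for each of the 6 transcripts.

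Of the 18193 genes, 5464 were called (30.0%). The line was higher for 2042 of them (11.2% of all genes) and lower for 3422 (18.8%). The distance was larger than that between the tumours: the log2 difference between tumour 1 and tumour 2 had an SD over genes of 0.77, against 1.58 for the line minus tumour 1 and 1.66 for the line minus tumour 2. Genes are not independent replicates, and across them the rank correlation of tumour 1 with tumour 2 was 0.92, against 0.73 and 0.686 for the line with each tumour. Among 12562 genes detected on the brightest of the 3 arrays, 4583 lay within 2-fold of both tumours (36.5%). The list counts below are to be read beside these shares of 11.2% higher, 18.8% lower and 36.5% within 2-fold. A list near them shows nothing particular to its members. The split between higher and lower depends on the scaling. As deposited, 37.4% of the calls were higher in the line and the median difference of all genes was -0.19. After quantile normalization these were 42.5% and 0.03. Centring the arrays on their medians gave 62.2% and 0.37. The counts also rest on the epidermis arrays, which supply 1 of the 2 residual degrees of freedom. Without epidermis 1 there were 1093 higher and 2235 lower, and without epidermis 2 there were 1084 and 2238. Without tumour 1 there were 3103 higher and 4148 lower. The ranges after a list count below give its lowest and highest value when any 1 tissue array was left out, and in every list whose count fell by over 1.5 times the low end came without an epidermis array. High ends above the stated count came without a tumour array.

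The line kept Krt5 at the tumour level. Krt5, the basal type II keratin, read 31322 in the line, 27408 in tumour 1 and 26659 in tumour 2, a difference of 0.21 ± 0.28 (adjusted p = 0.628). Trp63, the gene of p63, read 8779 in the line against 13168 and 13017, less than 2-fold apart on its brightest probe set. Of its 4 probe sets 2 were higher and 1 was lower, from -2.38 to 5.41, so its level relative to the tumours is unsettled. Both defining markers of basal keratinocytes had a bright probe set in the line. Krt14, the partner of Krt5, read 33585 in the line, 15397 in tumour 1 and 7866 in tumour 2, above both (1.61 ± 0.43, adjusted p = 0.0295, 2 of 3 probe sets higher). This call was lost without epidermis 1 (adjusted p = 0.0785), without epidermis 2 (0.076) and after quantile normalization (0.0833). Of 14 measured basal keratinocyte markers, 3 were higher (2 to 6, the high end without tumour 1) and 3 were lower (2 to 4). A further 5 lay within 2-fold of both tumours, and the median difference was 0.40. The share within 2-fold was near that of all detected genes (36.5%), and the share lower near that of all genes (18.8%). As a list, the basal markers were thus not kept more often than other genes.

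The other called members of the basal list were Itga3 and Cdh3, which were higher, and Krt15, Tfap2c and Lamb3, which were lower. Itga3, the integrin subunit that binds laminin 332, read 5073 in the line against 768.6 and 436.7 in the tumours (3.09 ± 0.39, adjusted p = 0.0021, 3 of 3 probe sets). Cdh3, P-cadherin, read 1085 against 155.3 and 58.4 (3.29 ± 0.63, adjusted p = 0.00923, 1 of 2 probe sets). Both lay above both tumours. Krt15, a keratin of basal and bulge cells, read 957 in the line against 23733 and 13434 (-4.20 ± 0.38, adjusted p = 0.000753). Tfap2c, an AP-2 transcription factor of the epidermis, read 424.2 against 3579 and 5067 (-3.28 ± 0.29, adjusted p = 0.000663, 2 of 3 probe sets). Both lay far below the lower tumour. Itga6 (7727 against 5957 and 5434) and Dst (10211 against 14493 and 12262), parts of the hemidesmosome, stayed within 2-fold, though 1 of 2 Itga6 probe sets was higher and 1 of 4 Dst probe sets was lower.

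General epithelial markers were lower almost throughout. Of 20 measured, 16 were lower (13 to 16), none was higher and none lay within 2-fold of both tumours, with a median difference of -3.03. Cdh1, E-cadherin of the adherens junction, read 59.4 in the line, 5489 in tumour 1 and 5891 in tumour 2, a difference of -6.24 ± 0.24 (adjusted p = 4.87e-05, and -5.54 with a pseudocount of 64). Epcam, an epithelial adhesion molecule, read 9.6 in the line against 7982 and 5582 (-8.03 ± 0.29, adjusted p = 4.87e-05, 2 of 2 probe sets). A value of 9.6 is under the pseudocount, which then sets the size of the difference, and with a pseudocount of 64 it was -6.52. Both genes read far below the lower tumour. Esrp1, a splicing regulator of epithelial isoforms, read 46.1 against 9981 and 12003 (-7.46 ± 0.25, and -6.64 with a pseudocount of 64). Grhl1, a grainyhead factor, read 21.8 against 4375 and 5047 (-6.96 ± 0.26, and -5.79 with a pseudocount of 64). Rab25, a GTPase of epithelial membrane recycling, read 16.2 against 753.5 and 201.2 (-3.67 ± 0.66, adjusted p = 0.00758). Spint2, a protease inhibitor, still read 1028 in the line against 6630 and 5037 (-2.47 ± 0.27, adjusted p = 0.00126, 1 of 2 probe sets).

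Some promoters of these genes hold the E-box CACCTG, or CAGGTG on the other strand, the motif that ZEB and SNAI factors bind. In the 250 bases before the RefSeq start site (GRCm38.p6), it occurred for 19.4% of 27025 genes with a promoter sequence. Of the 16 epithelial genes called lower, 9 had a promoter sequence and 6 of these held it: Cldn4, Epcam, Grhl3, Krt8, Rab25 and Spint2. Of all 20 measured epithelial genes, 13 had a sequence and 9 held it, so the motif was not particular to those called lower. It also occurred in 4 of the 7 basal keratinocyte markers with a sequence, Krt5 among them, whose level the line kept. A match describes the letters only, and binding was not measured. The 3 promoters below show a pair of genes called lower and a kept one, each written 5′ to 3′ on the strand of the gene, with the motif in capitals. Epcam lies on chr17:87635729-87635978 (plus strand), Rab25 on chr3:88548280-88548529 (minus strand) and Krt5 on chr15:101712906-101713155 (minus strand).
Epcam: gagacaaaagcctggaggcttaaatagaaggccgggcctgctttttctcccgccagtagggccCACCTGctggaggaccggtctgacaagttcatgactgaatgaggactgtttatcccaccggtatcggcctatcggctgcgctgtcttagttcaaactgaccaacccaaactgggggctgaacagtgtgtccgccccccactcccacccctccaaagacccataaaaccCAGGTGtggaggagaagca
Rab25: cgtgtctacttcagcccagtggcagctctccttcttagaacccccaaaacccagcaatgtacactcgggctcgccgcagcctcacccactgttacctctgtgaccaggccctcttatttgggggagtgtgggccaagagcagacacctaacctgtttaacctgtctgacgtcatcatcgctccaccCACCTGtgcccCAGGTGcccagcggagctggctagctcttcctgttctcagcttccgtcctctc
Krt5: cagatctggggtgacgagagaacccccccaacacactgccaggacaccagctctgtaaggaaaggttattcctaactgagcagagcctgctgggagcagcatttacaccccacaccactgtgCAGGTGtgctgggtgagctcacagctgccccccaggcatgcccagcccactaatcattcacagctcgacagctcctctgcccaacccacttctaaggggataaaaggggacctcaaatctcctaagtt
The first base of the motif lies 187 and 19 bases before the start site of Epcam, 64 and 53 before that of Rab25, and 128 before that of Krt5.

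Of 11 desmosomal genes, 4 were lower (4 to 6), 1 was higher (0 without either epidermis array) and 4 lay within 2-fold. The share within 2-fold was near that of all detected genes (36.5%). The 4 within 2-fold were Pkp2 and these: desmoplakin (Dsp) read 11360 in the line against 14876 and 15489 on its brightest probe set (1 of its 3 was higher, by 5.10), plakophilin 1 (Pkp1) 12797 against 16209 and 20413, and the membrane protein Perp 23575 against 21350 and 17872. The higher member was Jup, plakoglobin, at 1629 against 704.3 and 737.7 (1.16 ± 0.27, adjusted p = 0.0199), and Pkp3 and the cadherin Dsc3 were neither called nor within 2-fold. The 4 lower members were desmosomal cadherins, Dsc1 and these. Dsg1a, desmoglein 1 of the upper layers, was listed at 2.4 in the line against 4518 and 3455 (-7.75 ± 0.30, and -5.92 with a pseudocount of 64). Dsc2 read 6.1 against 607.7 and 669.7 (-4.89 ± 0.42, adjusted p = 0.000615, and -3.32 with a pseudocount of 64, 1 of 2 probe sets), and Dsg2 read 491.7 against 2870 and 3400 (-2.63 ± 0.27, adjusted p = 0.00103, 2 of 6 probe sets). Of 14 tight junction genes, 8 were lower (5 to 11) and none was higher, with a median difference of -2.08. Ocln, occludin, read 37.1 against 698.1 and 349.5 (-3.27 ± 0.44, adjusted p = 0.0027, 2 of 2 probe sets), and Marveld2, tricellulin, was listed at 2.8 against 648.8 and 525.9 (adjusted p = 0.000406). Tjp1, the ZO-1 scaffold, read 2402 against 3823 and 3285 and was within 2-fold.

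Markers of the differentiated epidermal layers were much lower in the line. All 8 measured spinous markers were lower, with a median difference of -6.93. Krt1, the spinous type II keratin, read 28.3 in the line, 6580 in tumour 1 and 7802 in tumour 2 (-7.34 ± 0.25, adjusted p = 4.87e-05, and -6.29 with a pseudocount of 64). Its partner Krt10 read 776.9 against 32567 and 21472 (-5.06 ± 0.32, adjusted p = 0.000243), still a readable level. The spinous list summed to 8808 in the line against 100555 in tumour 1 and 66018 in tumour 2. A member not shown here thus read higher in the line than Krt10. Krtdap, a secreted spinous protein, read 19.2 against 9704 and 2448 (-7.12 ± 0.70, adjusted p = 0.000928). Of 14 granular and cornified genes, 10 were lower and none was higher, with a median of -3.65. Flg, filaggrin, was listed at 3.9 against 3557 and 3126 (-7.40 ± 0.26, and -5.65 with a pseudocount of 64). Hrnr, hornerin, was listed at 1.8 against 6023 and 978.6, so that the tumours themselves differed more than for Flg. The granular list was higher in tumour 1 than in tumour 2 by a median of 1.51.

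Wound and companion layer keratins followed. All 6 were lower, with a median of -4.95. Krt79, a keratin of the follicle opening and sebaceous duct, read 24.8 against 13499 and 10777 (-8.21 ± 0.26, adjusted p = 4.87e-05, and -7.09 with a pseudocount of 64). Krt6b, a stress keratin, read 26 against 7443 and 8573 (-7.57 ± 0.28, adjusted p = 4.87e-05). Krt17, an activation keratin also abundant in basal cell carcinoma, read 35 against 13321 and 5166 (-7.35 ± 0.57, adjusted p = 0.000444, 2 of 2 probe sets). For these named keratins, no value of the line came near the lower tumour. The list summed to 2501 in the line against 47177 in tumour 1 and 37237 in tumour 2. Members not named here thus read higher in the line than these. Of 7 simple epithelial keratins, 3 were lower (1 without either epidermis array), none was higher and 1 lay within 2-fold. They summed to 1585 in the line against 2856 in tumour 1 and 1505 in tumour 2. Krt8 read 12.5 against 99.8 and 124.6, with 3 of 3 probe sets lower. Each of these Krt8 values lay below the median probe set of its array.

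Follicle stem cell genes, which mark the bulge and the germ, were lower for 12 of 16 (11 to 13), with a median of -2.64. Lhx2, a bulge homeobox factor, read 42.8 in the line against 4889 and 3345 (-6.11 ± 0.34, adjusted p = 0.000165). Lgr5, the receptor of R-spondins on cycling follicle stem cells, read 55.1 against 5218 and 2788 (-5.75 ± 0.43, adjusted p = 0.000399, 2 of 2 probe sets). Shisa2 read 32.6 against 2485 and 2567 (2 of 2 probe sets lower), and Nfatc1, a quiescence factor of the bulge, read 58.4 against 2258 and 1996 (-4.85 ± 0.38, adjusted p = 0.000457, 4 of 5 probe sets). Each lay far below both tumours. Sox9, the follicle stem cell factor, was different: it read 1108 in the line, between 1492 in tumour 1 and 803.3 in tumour 2, with 1 of 3 probe sets lower. Gata3, of the inner root sheath, read 847 against 1624 and 1547, within 2-fold of both (-0.89 ± 0.24, adjusted p = 0.0326, 0.155 and 0.154 without epidermis 1 and 2). Hair shaft and root sheath genes were lower for 4 of 19 (1 to 11, the high end without tumour 1). Tchh, trichohyalin of the inner root sheath, was listed at 2.1 in the line against 250 and 2176, so that the tumours differed as well. Of 8 sebaceous genes, 3 were lower: Scd1, a fatty acid desaturase, read 2815 against 27894 and 18056 (-2.99 ± 0.32, adjusted p = 0.00124, 1 of 2 probe sets), while Fasn, fatty acid synthase, read 2332 against 2753 and 1860.

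Of 16 measured components of the Hedgehog pathway, 10 were lower (5 to 11), 1 was higher (0 to 1) and 4 lay within 2-fold, with a median difference of -1.36; 8 were lower after quantile normalization and 6 with centred arrays. Among ligands, Shh read 55.8 in the line against 200.2 and 351.5 (-1.97 ± 0.42, adjusted p = 0.0134, 0.0501 without epidermis 2, 1 of 2 probe sets). Dhh read 54.3 against 373.9 and 229.5 (-2.14 ± 0.54, adjusted p = 0.025, 1 of 2 probe sets). That call was lost without tumour 1 (0.0536), epidermis 1 (0.0587) or epidermis 2 (0.0594). Ihh read 75.1 against 52.1 and 11 and was not called (adjusted p = 0.302). Of the genes of ligand release, Hhat, which adds palmitate to the ligand, read 675.3 against 65 and 212.4 (2.35 ± 0.69, adjusted p = 0.042, 0.0779 and 0.079 without epidermis 1 and 2, 2 of 2 probe sets), and Disp1, which exports it, read 151.8 against 184.3 and 244.3, within 2-fold. All 3 ligands read below the median probe set of the line array, 78.3.

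The decoy receptor Hhip and the receptor Ptch1 had the widest gaps among the components. The brightest probe set of Ptch1 read 2185 in the line, 26620 in tumour 1 and 38710 in tumour 2 (-3.87 ± 0.30, adjusted p = 0.000462). A further probe set read 125.9 against 3572 and 3089 (-4.56), whereas the last read 97.3 against 4.7 and 7.8 (2.35) and so went the other way at a low level. Hhip, itself a pathway target, read 239.6 against 7444 and 4037 (-4.43 ± 0.52, adjusted p = 0.00165, 4 of 4 probe sets). Of the co-receptors, Boc read 180.1 against 1842 and 1745 (-3.21 ± 0.44, adjusted p = 0.0029, 2 of 3 probe sets) and Cdon 348 against 1888 and 3500 (-2.83 ± 0.40, adjusted p = 0.00314, 1 of 2 probe sets). Gas1, the membrane-anchored co-receptor, stayed bright at 6401 against 14327 and 12240 (-1.05 ± 0.25, adjusted p = 0.0217, 0.112 and 0.109 without epidermis 1 and 2, 2 of 3 probe sets). Smo, the transducer, read 1935 against 3570 and 3726, within 2-fold of both (-0.91 ± 0.24, adjusted p = 0.0303, 2 of 3 probe sets). It was not called without either epidermis array (0.14 each). Of its other probe sets, one was lower at a low level (3.1 against 66.8 and 105.6, -2.39) and one was not called (0.71).

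The GLI factors differed from each other. Gli1 read 841.9 in the line, 2192 in tumour 1 and 1933 in tumour 2 (-1.27 ± 0.34, adjusted p = 0.0315, 0.0732 and 0.0754 without epidermis 1 and 2, 0.174 with centred arrays). Gli2, the main activator, read 1832 against 8193 and 7289 (-2.07 ± 0.24, adjusted p = 0.00168, 1 of 2 probe sets). Gli3, largely a repressor, read 1358 against 1149 and 1148 (0.24 ± 0.28, adjusted p = 0.58), level with the tumours, though 1 of its 3 probe sets was higher. Sufu, the inhibitor that holds GLI proteins, read 494.3 against 644.7 and 510.7, also level. Kif7, the ciliary kinesin, read 214.1 against 818.2 and 455 (-1.45 ± 0.45, adjusted p = 0.0504). The Gli1 and Ptch1 signals of the line were above those of the same cells under cyclopamine. Gli1 read 193.2 at 6 h and 189.6 at 10 h, and Ptch1 read 686.2 and 549.5, each from 1 array, with no test.

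Of 15 Hedgehog target genes, 7 were lower (6 to 8), 3 were higher and 3 lay within 2-fold, with a median of -0.99. The list shares Gli1, Ptch1 and Hhip with the components. Mycn read 1047 against 6253 and 5627 (-2.48 ± 0.25, adjusted p = 0.000969), on 1 of 3 probe sets. Ccnd2, cyclin D2, went the opposite way at 23459 against 2270 and 1396, or 12.8-fold higher (3.71 ± 0.37, adjusted p = 0.00102, 7 of 7 probe sets). Ccnd1, cyclin D1, read 9128 against 4099 and 3476 (1.27 ± 0.26, adjusted p = 0.0113, 0.0634 and 0.0626 without epidermis 1 and 2, 2 of 3 probe sets). Igf2 read 887.5 against 318.1 and 167.5 (1.87 ± 0.39, adjusted p = 0.0131, 1 of 2 probe sets). Both cyclins and Igf2 lay above both tumours. Igfbp3, which binds IGFs, read 56.6 against 3329 and 1279 (-4.84 ± 0.56, adjusted p = 0.00153, 2 of 2 probe sets), and Pdgfra, also a fibroblast marker, was listed at 6.9 against 1068 and 3067 (2 of 3 probe sets lower). Of 30 genes of the primary cilium, 13 lay within 2-fold, a share near that of all detected genes (36.5%), 8 were lower (3 to 8) and 2 were higher (0 to 3). The list's median of -0.42 became 0.14 with centred arrays. Ift57 read 1715 against 1539 and 1979, and Bbs2, of the BBSome, read 140 against 582.3 and 618 (-1.98 ± 0.39, adjusted p = 0.0103).

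Stromal markers were far lower in the line than in either tumour. Of 17 fibroblast and collagen matrix genes, 15 were lower (14 to 15) and none was higher, with a median of -5.47. Their summed intensity was 11450 in the line, 118994 in tumour 1 and 147998 in tumour 2. Col3a1, a fibrillar collagen, read 33.7 against 22487 and 28243 (-8.99 ± 0.36, adjusted p = 5.06e-05, 2 of 2 probe sets, and -8.01 with a pseudocount of 64). Col1a2 read 267.6 against 19093 and 29640 (-6.39 ± 0.43, adjusted p = 0.000275, 3 of 3 probe sets), and Postn, periostin, read 117.6 against 16691 and 27352 (-7.32 ± 0.36, adjusted p = 0.000111). Col5a1 was the member within 2-fold, at 2454 against 2429 and 2962, with 1 of 3 probe sets higher. Of 11 pericyte and smooth muscle genes, 6 were lower, among them Rgs5, a pericyte gene listed at 1.3 against 1985 and 795.3 (adjusted p = 0.0014, 2 of 4 probe sets). Acta2, smooth muscle actin, was the exception at 22868 against 1470 and 1561 (3.90 ± 0.27, adjusted p = 0.000297), on 1 of 3 probe sets.

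Vessel, immune and pigment cell markers were low in the line. Of 13 endothelial genes, 5 were lower, with counts of 2 and 1 without epidermis 1 and 2, and their summed intensity was 652.3 in the line against 2682 and 2056. Vwf, von Willebrand factor, was listed at 5.6 against 592.4 and 461.6 (-4.64 ± 0.57, adjusted p = 0.00184, and -3.08 with a pseudocount of 64). Of 13 macrophage genes, 10 were lower (8 to 10), with a sum of 1229 against 13004 and 13922. Csf1r, the receptor of macrophage growth factor, read 96.2 against 6288 and 7957 (-5.98 ± 0.30, adjusted p = 0.000116, 2 of 3 probe sets), and Cd163 was listed at 2.1 against 403.8 and 544.5. Cd14, which other cells express too, read 391.2 against 218.9 and 394.6, within 2-fold of both. Of 9 genes of MHC class II and Langerhans cells, 6 were lower, and H2-Aa read 20 against 6287 and 5947 (-7.41 ± 0.32, adjusted p = 6.44e-05, 3 of 4 probe sets, and -6.20 with a pseudocount of 64). Of 9 mast cell genes, 5 were lower, led by the protease Cpa3 at 19.4 against 1672 and 1996 (-5.70 ± 0.62, adjusted p = 0.00131). Of 11 melanocyte genes, 8 were lower, and Tyrp1 of pigment synthesis read 48 against 4320 and 5896 (-6.31 ± 0.31, adjusted p = 0.000116, 3 of 3 probe sets).

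Markers of other cell types were weaker or unequal on the tumour arrays. T and NK cell genes were lower for 2 of 10 (1 to 3, with 1 also without tumour 2) and summed to 289.7 in the line against 578.9 and 729.3. None of 7 B and plasma cell genes was called (605.5 against 634.3 and 736.5). Of 9 neutrophil genes, 3 were lower, with S100a8, which keratinocytes also make, at 44.6 against 2395 and 7956. Skeletal muscle genes were lower for 5 of 14, or 12 without tumour 2. Their sum was 655.4 in the line, 22616 in tumour 1 and 4219 in tumour 2, so the tumours held unequal amounts. Adipocyte and Schwann cell genes were lower for 2 of 5 and 2 of 6, and none of 4 erythroid genes was called.

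Genes named for mesenchymal transition did not move as a block. Of 12, 6 were higher (1 to 6, with 1 without either epidermis array), 3 were lower and 3 lay within 2-fold, with a median of 0.69. Cdh2, N-cadherin, read 2258 in the line, 90.9 in tumour 1 and 126.1 in tumour 2 (4.21 ± 0.49, adjusted p = 0.00161, 2 of 2 probe sets, and 3.76 with a pseudocount of 64). Vim, vimentin, read 22198 against 9837 and 12590 (1.0 ± 0.30, adjusted p = 0.0474, 0.136 and 0.134 without epidermis 1 and 2, 0.125 after quantile normalization). Its other probe sets were both called higher, by 3.39 and 1.15. Zeb1, a repressor of epithelial genes, read 1987 against 582.9 and 852.8 (1.47 ± 0.36, adjusted p = 0.023, 0.0736 and 0.0729 without epidermis 1 and 2). Of its 4 probe sets, 1 was higher and 1 was lower (-2.65), so its direction is unsettled. Fn1, fibronectin, read 3768 against 1960 and 1678 (1.05 ± 0.26, adjusted p = 0.0248, 0.105 without either epidermis array, 1 of 2 probe sets). Snai2, a repressor that basal keratinocytes express, was lower at 7601 against 13728 and 18514 (-1.07 ± 0.30, adjusted p = 0.0363, 0.124 and 0.119 without epidermis 1 and 2), and its other probe set gave 0.61. Prrx1, also a fibroblast factor, read 18.5 against 1693 and 1892 (-5.71 ± 0.38, adjusted p = 0.000275, 2 of 6 probe sets), and Twist2 read 54.6 against 734.6 and 908.5 (-3.56 ± 0.49, adjusted p = 0.00278). Zeb2 and Twist1 lay within 2-fold, though 1 of 5 Zeb2 probe sets was lower. Stromal cells also express Vim, Fn1, Prrx1 and Twist2; the share of the stroma in their tumour values was not tested.

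Integrins and actin genes were higher in part. Of 17 integrins, 4 were higher (3 to 5), 2 were lower (0 without either epidermis array) and 6 lay within 2-fold, and the median of 0.12 became -0.03 after quantile normalization. Itgb1, the common β1 subunit, read 10586 in the line against 565.4 and 362.2 (4.50 ± 0.39, adjusted p = 0.000626, 3 of 6 probe sets), and its collagen-binding partner Itga2 read 530.6 against 47.9 and 83.6 (2.78 ± 0.58, adjusted p = 0.0123). Itgav read 8469 against 8550 and 7137 and was kept on its brightest probe set, with 2 of 5 higher. Of 23 YAP and SRF genes, 12 were higher (9 to 15) and 1 was lower (1 to 2), with a median of 1.10. The list holds targets that respond to spreading and actin tension, and also regulators such as Yap1, Wwtr1 and Srf. Axl, a receptor kinase, read 7684 against 526 and 166.1 (4.62 ± 0.60, adjusted p = 0.00238, 1 of 2 probe sets), and Flna, filamin A, read 10394 against 2267 and 757.1 (2.97 ± 0.58, adjusted p = 0.0102). Tpm1, tropomyosin, read 9067 against 899.8 and 682.5 (3.51 ± 0.28, adjusted p = 0.000478), on 1 of 4 probe sets. Ccn2, a standard YAP target, was lower at 1940 against 6834 and 7793 (-1.90 ± 0.25, adjusted p = 0.00244).

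Basement membrane genes were kept or lower: of 18, 8 lay within 2-fold, 6 were lower and none was higher. Col4a1, of collagen IV, read 6575 in the line against 7550 and 6591, and Lamb1 read 4555 against 3670 and 6822, with 2 of 4 probe sets higher. Nid1, nidogen, read 18.1 against 1977 and 2537 (-6.05 ± 0.48, adjusted p = 0.000479, 2 of 3 probe sets), and Lama2 was listed at 3.6 against 1621 and 1118 (adjusted p = 0.000395). Both are made by stromal cells of skin as well. Lamb3, a chain of laminin 332 made by basal keratinocytes, read 757.6 against 4504 and 1798 (-1.89 ± 0.54, adjusted p = 0.0377, 0.071 and 0.0712 without epidermis 1 and 2). Of 16 genes of matrix proteolysis, 5 were higher (2 to 6) and 5 were lower (3 without either epidermis array). The protease inhibitor Timp1 read 3433 against 437.1 and 230.3 (3.37 ± 0.48, adjusted p = 0.0031) and stromelysin Mmp3 5329 against 1068 and 368.8 (3.05 ± 0.67, adjusted p = 0.0153). Gelatinase Mmp2, a fibroblast product in skin, read 289.7 against 10696 and 7855 (-4.91 ± 0.29, adjusted p = 0.000206, 2 of 2 probe sets).

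DNA replication genes were higher in the line for 17 of 25 (12 to 21), none was lower, and the median was 1.72. For 24 of the 25, the line array lay above all 4 tissue arrays, which held for 25.0% of all genes. Of 15 called members with several probe sets, 12 had a second probe set called the same way. Mcm3, of the replicative helicase, read 5094 in the line, 415.2 in tumour 1 and 380.1 in tumour 2 (3.63 ± 0.34, adjusted p = 0.000845, 4 of 5 probe sets). Cdc6, which loads the helicase, read 1727 against 120.7 and 133.4 (3.61 ± 0.35, adjusted p = 0.000913), and Pcna, the polymerase clamp, read 21135 against 3358 and 2024 (3.01 ± 0.38, adjusted p = 0.00205). The tumours did not reach the line for any of these. Mcm7 read 12728 against 7090 and 10190, within 2-fold on its brightest probe set, with 2 of 4 higher. Mitosis genes followed less: of 22, 3 were higher (2 to 9, the high end without tumour 2), 1 was lower (0 to 3) and 7 lay within 2-fold, with a median of 0.86. Cdk1, the mitotic kinase, read 4562 against 410.5 and 578.7 (3.18 ± 0.32, adjusted p = 0.00103), whereas Mki67, the Ki-67 marker, read 1161 against 2958 and 9486 (-2.18 ± 0.63, adjusted p = 0.0402, 0.0733 and 0.0729 without epidermis 1 and 2). The mitosis list differed between the tumours, tumour 1 lying below tumour 2 by a median difference of -0.80.

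Among regulators of the cycle, 6 of 20 were higher (3 to 8) and 2 were lower (0 to 3). Cdk4, the partner of the D cyclins, read 8455 in the line against 3220 and 2056 (1.71 ± 0.32, adjusted p = 0.00815, 3 of 3 probe sets). Cdkn2a, which encodes p16 and p19ARF, read 388.5 against 44.8 and 53.7 (2.64 ± 0.54, adjusted p = 0.0116), above both tumours. Cdkn1a, p21, read 2856 against 3873 and 2019, between the tumours. Myc and Mycn went opposite ways: Myc read 2769 against 427.8 and 177.9 (3.25 ± 0.49, adjusted p = 0.00388), while Mycn was lower as given above, and the antagonists Mxd1 (91.4 against 804.6 and 768.5, 1 of 3 probe sets) and Mxd4 (647.2 against 3361 and 5080, 1 of 4 probe sets) were lower too. Of 18 p53 target genes, 8 were higher (5 to 10), 3 were lower (1 to 3) and 4 lay within 2-fold, with a median of 0.92. Phlda3, an inhibitor of AKT signalling, read 6436 against 511.4 and 290.4 (4.0 ± 0.38, adjusted p = 0.000858). Pmaip1, the pro-apoptotic NOXA, read 1377 against 143.5 and 117.3 (3.26 ± 0.35, adjusted p = 0.00123), and Aen, a nuclease, read 2407 against 367.5 and 294.6 (2.81 ± 0.28, adjusted p = 0.00102, 3 of 4 probe sets). All 3 lay above both tumours. Of 13 BCL2 family genes, 3 were higher and 5 were lower (1 to 7, with 1 without either epidermis array). Bid, a trigger of mitochondrial permeabilisation, read 1239 against 331.5 and 180.2 (2.27 ± 0.48, adjusted p = 0.0133, 2 of 3 probe sets).

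Lists of ribosome assembly, nucleotide metabolism and oxidative phosphorylation had higher calls and no lower call. Of 21 ribosome biogenesis genes, 16 were higher (12 to 18), with a median of 1.76. Nop58, a core protein of box C/D snoRNPs, read 2918 in the line against 446.7 and 567.9 (2.50 ± 0.28, adjusted p = 0.0014), and Nolc1 read 3226 against 592.4 and 550.4 (2.47 ± 0.27, adjusted p = 0.00126, 3 of 3 probe sets). Of 16 genes of nucleotide and one-carbon metabolism, 10 were higher (5 to 14), with a median of 1.34, and all 7 called members with several probe sets had a second one called the same way. Shmt2, the mitochondrial serine hydroxymethyltransferase, read 6903 against 897.6 and 917.6 (2.91 ± 0.25, adjusted p = 0.000588, 2 of 4 probe sets). Of 25 oxidative phosphorylation genes, 9 were higher (7 to 14) and 15 lay within 2-fold. Ndufa4 read 8471 against 1822 and 701.5 (2.89 ± 0.51, adjusted p = 0.00681), whereas Uqcrb of complex III read 30425 against 25010 and 26507 and was kept, with the other of its 2 probe sets higher.

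The ribosomal protein genes themselves gave no stable call. Of 22, 9 were higher, but none was without either epidermis array, 2 were after quantile normalization, and 3 when a gene's probe sets were averaged. Rps9 read 23077 in the line, 6488 in tumour 1 and 1522 in tumour 2 (2.87 ± 0.73, adjusted p = 0.0259, 0.0544 and 0.0537 without epidermis 1 and 2), with its other probe sets at 0.60 and -0.27. Rps14 (34961 against 28298 and 29546) and Rps18 (28964 against 33642 and 43394) were level with the tumours, though 1 of 6 Rps18 probe sets was higher.

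Stress response genes were higher in part. Of 18 ATF4 and unfolded protein response genes, 10 were higher (9 to 11), 8 lay within 2-fold and none was lower, with a median of 1.73. Asns, asparagine synthetase, read 6469 in the line, 1021 in tumour 1 and 787 in tumour 2 (2.83 ± 0.27, adjusted p = 0.000853, 2 of 2 probe sets), and the amino acid transporter Slc7a5 read 3128 against 651.6 and 597.2 (2.30 ± 0.28, adjusted p = 0.00186). Hspa5, the main chaperone of the endoplasmic reticulum, read 15293 against 10635 and 14178 and was level, with 1 of 3 probe sets higher. Of 14 NRF2 and oxidative stress genes, 9 were higher (6 to 10) and none was lower, with a median of 1.55. Hmox1, heme oxygenase, read 886.4 against 37.9 and 22.2 (4.31 ± 0.43, adjusted p = 0.00099, and 3.34 with a pseudocount of 64). Glycolysis and hypoxia genes went both ways, 4 of 19 higher (4 to 8, the high end without tumour 2) and 6 lower. Pgam1 read 10574 against 2041 and 1279 (2.70 ± 0.32, adjusted p = 0.00169), while Hk2, hexokinase 2, read 577.1 against 4040 and 8029 (-3.27 ± 0.42, adjusted p = 0.00216) and Pdk1, which limits pyruvate oxidation, 539.2 against 3788 and 4172 (-2.85 ± 0.25, adjusted p = 0.000663, 2 of 4 probe sets). Of 19 cholesterol synthesis genes, 3 were higher (2 to 6, the high end without tumour 1) and 4 were lower (3 to 8, the high end without tumour 2). Another 9 lay within 2-fold. The shares called were not far from those of all genes (11.2% higher and 18.8% lower). Hmgcs1, which makes HMG-CoA, read 6316 against 27304 and 34591 (-2.28 ± 0.28, adjusted p = 0.00194), with 2 of its 5 probe sets lower and 1 higher.

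For the lists with more higher than lower calls, the large 3′ to 5′ ratios of the tumour arrays move with the group, and their part was not tested. On the epidermis arrays the Actb ratios were 3.98 and 2.84, but those of the added Thr were 18.4 and 41.6, as large as on the tumours. The line lay above all 4 tissue arrays for 24 of 25 replication, 15 of 21 ribosome biogenesis, 12 of 18 ATF4, 12 of 23 YAP and SRF, 11 of 16 nucleotide, 10 of 14 NRF2, 11 of 18 p53, 10 of 22 mitosis, 9 of 25 oxidative phosphorylation and 5 of 22 ribosomal protein genes, beside 25.0% of all genes. Agreement of a second probe set, among members called higher with several, also varied by list. It was 12 of 15 for replication, 7 of 7 for nucleotide, 9 of 13 for ribosome biogenesis and 4 of 5 for NRF2. For p53 and oxidative phosphorylation it was 3 of 4 each. It was lower for ATF4 (4 of 7), mesenchymal (2 of 5), YAP and SRF (3 of 9) and ribosomal protein genes (1 of 3).

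Of 18 genes of the EGF and FGF receptor families, with Met, 4 were higher (1 without either epidermis array) and 4 were lower, and their median of -0.35 became 0.21 with centred arrays. Met, the HGF receptor, read 7833 in the line against 1276 and 779.9 (2.95 ± 0.36, adjusted p = 0.00184, 2 of 2 probe sets). Erbb3 read 32 against 3623 and 3034 (-6.12 ± 0.25, adjusted p = 5.42e-05, 1 of 2 probe sets, and -5.14 with a pseudocount of 64), and Fgfr3 read 203.1 against 3847 and 2769 (-3.90 ± 0.29, adjusted p = 0.000399, 1 of 2 probe sets). Egfr was kept at 2787 against 1634 and 2562, with 1 of 7 probe sets higher. In the IGF axis, 3 of 15 were higher (1 without either epidermis array) and 6 lower. Igf1 read 117.6 against 2438 and 2341 (-4.17 ± 0.32, adjusted p = 0.000426, 3 of 4 probe sets), while Igf1r, its receptor, read 2069 against 2940 and 3055 and stayed within 2-fold, with 1 of 5 probe sets higher and 2 lower.

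Of 24 TGF-β and BMP genes, 14 were lower (10 to 15) and 2 were higher (2 to 4), with a median of -1.63. The ligands Tgfb1 and Tgfb2 went opposite ways: Tgfb1 read 1793 in the line against 98.4 and 103.6 (3.95 ± 0.47, adjusted p = 0.0017, 1 of 2 probe sets), and Tgfb2 read 200 against 3307 and 7309 (-4.51 ± 0.47, adjusted p = 0.00112, 3 of 4 probe sets). Their receptor Tgfbr2 was level, at 4598 against 5606 and 3415, with 1 of 3 probe sets higher. Fst, follistatin, an antagonist of activin, was listed at 2.4 against 5704 and 4947 (-8.18 ± 0.32, and -6.34 with a pseudocount of 64, 2 of 2 probe sets), and Bmp2 read 12.6 against 964.3 and 606.8 (adjusted p = 0.000525). Of 30 Wnt pathway genes, 11 were lower (7 to 14) and 3 were higher (1 to 6), with a median of -0.95. Dkk3 read 7757 against 834.3 and 695.8 (3.32 ± 0.29, adjusted p = 0.000613, 2 of 2 probe sets), whereas the Wnt antagonist Dkk2 read 7.9 against 926.5 and 704.1 (adjusted p = 0.000978) and the receptor Fzd7 312.3 against 5429 and 2322 (-3.44 ± 0.50, adjusted p = 0.00352, 1 of 2 probe sets). Of 17 Notch genes, 6 were lower and none was higher (3 were without tumour 1), and the list's median of -0.50 became 0.06 with centred arrays. Notch1 read 1438 against 4414 and 5975 (-1.83 ± 0.29, adjusted p = 0.00472, 1 of 2 probe sets).

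Immediate early genes, which respond to stimulation without new protein synthesis, were lower for 7 of 20 (5 to 10) and higher for 2 (0 to 6, the high end without tumour 1). Egr2 read 47.7 in the line against 3732 and 7304 (-6.36 ± 0.40, adjusted p = 0.000243, 2 of 2 probe sets), Egr3 298.8 against 7278 and 7206 (-4.53 ± 0.26, adjusted p = 0.000171, 1 of 2 probe sets) and Klf4, also a differentiation factor, 1881 against 13011 and 12602 (-2.76 ± 0.26, adjusted p = 0.000796, 2 of 2 probe sets). Atf3 was level at 126.8 against 153.9 and 166.4. Interferon genes gave 3 higher (2 to 3) and 3 lower (1 to 3) of 18, not far from the shares of all genes (11.2% and 18.8%). Bst2, tetherin, read 377.9 against 7.8 and 7.6 (4.05 ± 0.55, adjusted p = 0.00268, and 2.62 with a pseudocount of 64), and Ifit3 read 13.8 against 203.7 and 142.1 (-2.64 ± 0.53, adjusted p = 0.011, and -1.59 with a pseudocount of 64). Of 11 genes of MHC class I processing, 5 were lower. B2m, the class I light chain, was kept at 6611 against 6474 and 5840 on 1 probe set and was higher on the other (1.88), while the proteasome subunit Psmb9 read 27.1 against 350.6 and 286 (-2.95 ± 0.49, adjusted p = 0.00546). Of 20 cytokine and chemokine genes, 4 were higher and 3 were lower (1 to 4). Cxcl12 read 7007 against 1184 and 1357 (2.45 ± 0.33, adjusted p = 0.00251, 3 of 3 probe sets), and Il33, an alarmin of keratinocytes, read 2566 against 580.5 and 267.4 (2.65 ± 0.55, adjusted p = 0.0122).

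Imprinted and fetal growth genes were divided, with 4 of 15 higher and 6 lower (4 to 7). Mest read 3760 in the line against 93.2 and 101.7 (5.06 ± 0.37, adjusted p = 0.000365), and Hmga2, a fetal chromatin protein, read 14160 against 1304 and 2873 (2.86 ± 0.49, adjusted p = 0.00624, 3 of 4 probe sets). Peg3 read 7.4 against 5840 and 9119 (-8.29 ± 0.32, and -6.69 with a pseudocount of 64, 2 of 5 probe sets), and Meg3 148.2 against 2767 and 4156 (-4.38 ± 0.35, adjusted p = 0.000488, 4 of 11 probe sets). Of 13 Sox genes, 2 were lower and 5 lay within 2-fold, and of 30 Hox genes 2 were higher (1 to 3) and 3 were lower (1 to 3). In the line 10 of the 30 Hox genes read under 16, against 8 in tumour 1 and 7 in tumour 2.

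The 15 largest differences downward were led by Moxd1, a monooxygenase-like gene listed at 6.4 in the line against 12477 and 17958 (-9.39 ± 0.36, adjusted p = 4.87e-05, and -7.74 with a pseudocount of 64). Psapl1 followed at 13.9 against 20131 and 13763 (-9.12 ± 0.30, and -7.74 with a pseudocount of 64, 2 of 2 probe sets). Alcam, a cell adhesion molecule, read 16.8 against 12997 and 24055 (-9.08 ± 0.38, adjusted p = 5.54e-05, 5 of 5 probe sets, and -7.78 with a pseudocount of 64), and Nrcam, a neural adhesion molecule, read 7.5 against 8910 and 13420 (-8.86 ± 0.36, 4 of 4 probe sets, and -7.27 with a pseudocount of 64). Every probe set of both adhesion molecules was thus lower in the line. Apoe, the lipid carrier of macrophages and sebaceous cells, read 14.7 against 17118 and 6788 (-8.46 ± 0.54, and -7.11 with a pseudocount of 64). The others were Lce1c of the cornified envelope, the antimicrobial gene Defb6, the lysozyme gene Lyz1, Laptm5 and the metalloreductase Steap4. Col3a1, Peg3, Krt79, Fst and Epcam, given above, completed the 15.

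The 15 largest upward differences were smaller. Mlkl, the effector of necroptosis, read 2577 in the line against 13.7 and 13.1 (6.46 ± 0.53, adjusted p = 0.000525, and 5.09 with a pseudocount of 64). Fads3, a fatty acid desaturase, read 7096 against 107.1 and 98.6 (5.90 ± 0.59, adjusted p = 0.000969, 3 of 3 probe sets), Akap12, a kinase scaffold, 6916 against 120.9 and 93.5 (5.82 ± 0.44, adjusted p = 0.000399) and Anxa3, an annexin, 14829 against 221.5 and 286.4 (5.79 ± 0.31, adjusted p = 0.000146). The rule for the 15 took only genes whose line value lay outside the range of the tumours. Fgf5, which ends hair growth, read 1954 against 23.9 and 43.8 (5.33 ± 0.56, adjusted p = 0.0012, 2 of 2 probe sets), and Rras2, a RAS-related GTPase, read 8152 against 259.7 and 168.2 (5.18 ± 0.36, adjusted p = 0.000297, 2 of 2 probe sets). Brinp3, Tspan12, Syt12, Tll1, Prune2, Pfn1, Ube2s and Mest made up most of the remainder. Timm10b completed the 15 with 3 probe sets higher and 1 lower.

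Several of the genes within 2-fold of both tumours that were named for a high signal have general roles in the cell. Eef1a1, the elongation factor, read 43321 in the line against 31041 and 29764, and Tpt1 read 38449 against 29397 and 35522. Hspa8, a constitutive chaperone, read 34468 against 23883 and 30517, although 2 of its 4 probe sets were called higher. Akr1a1 read 21424 against 27454 and 33761. Of the catenins, which bind cadherins, Ctnna1, α-catenin, read 12399 against 15889 and 19044, with 1 of its 4 probe sets lower. Ctnnb1, β-catenin, read 15137 against 24568 and 28608 on its brightest probe set, but its 2 other probe sets were called higher, by 2.17 and 3.27, so its level relative to the tumours is unsettled. The choice of probe set matters throughout: of 5135 genes with several probe sets and a call on any of them, 529 (10.3%) had probe sets called in both directions.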

How the data were processed

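The deposited table holds 1 linear intensity per probe set and array, as made by the authors. The program that summarised the probes is not given in the sources used here. With 2 percent of the values trimmed at each end, array means lay between 499.8 and 499.9, which scaling of whole arrays would give, although no source states it. No further normalization was applied. The number of arrays limits the precision.

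Control probe sets (64), probe sets of several genes (932) and those without a gene name (9160) were left out. Where a gene had several probe sets, it was represented by the brightest one (mean log2 value, all 7 arrays). Log2(intensity + 16) was fitted with limma 3.58.1 in R 4.3.3 (lmFit, eBayes with a variance trend) on 5 arrays: 1 of the line, 2 of tumour and 2 of epidermis. The p-values were two-sided and Benjamini-Hochberg adjusted over 18193 genes, with 2 residual degrees of freedom. On simulated data for this comparison (18193 genes), it recovered 2, 38, 48 and 50 of 50 genes changed by 1, 2, 3 and 4 on the log2 scale, with 8 false calls. The simulated noise was normal, the line array varied like the tissue arrays, and only a small set of bright genes was changed. The simulation assumed what the single line array cannot show, so its false calls do not estimate the error in these data. A gene counted as detected if its value on the brightest of the 3 arrays was over the median probe set of that array.

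The members and the 60 gene lists (997 entries, 925 measured) were chosen with earlier results of these data known, so lists are described by counts and medians and not tested. Genes were named by rule: the 15 largest called differences each way with a higher side over 64, all Hedgehog components, up to 4 and 2 called members of each list by direction, or its 2 brightest where none was called, and the brightest kept genes. For the 15 each way, the line value also had to lie outside the range of the tumours. Trp63, Dsp, Vim, Snai2, Twist1, Pcna, Ccnd1, Spint2, Krt10, Lamb3, Pkp2, Pkp3 and Dsc3 were named after their values were seen, and so were Cldn4, Grhl3, Krt8 and Rab25 in the promoter search. Promoter sequences came from RefSeq (GRCm38.p6); 13 of 20, and 7 of 14, measured members of the 2 lists searched had one. Alternatives were other scalings, pseudocounts of 4 and 64, a filter on low values, other uses of the probe sets, no variance trend, fewer arrays, all 3 PDKC1 arrays as the line, and each tissue array left out.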

Additional observations from a re-analysis of the deposited data

How the results depend on the processing

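The 2042 genes higher in the line became 3474 with arrays centred on their medians, 4682 with all probe sets tested, 1166 with only the 3 arrays of line and tumour, and 3567 with all 3 PDKC1 arrays as the line; leaving out 1 tissue array gave 1084 to 3103. The 3422 lower genes became 2115, 5546, 2310 and 5288 under these settings, and 2235 to 4148 with 1 array left out. The counts with all probe sets are of probe sets, with 34945 tested against 18193 genes, and so are not comparable with the counts of genes. Within 2-fold lay 4583 of 12562 detected genes, and 7607 of 23289 detected probe sets. With 1 tumour array left out, 5339 to 6015 genes lay within 2-fold. Without a variance trend 1399 were higher and 2830 lower. Of 290 named genes that were called, between 219 (without epidermis 2) and 288 (all PDKC1 arrays) were still called under each alternative. Without probe sets that match several transcripts, these changed from negative to positive: Adm (0.17), Bmf (0.12), Fdft1 (0.87), Hsd17b7 (0.37), Ndrg1 (0.13), Sesn1 (0.44), Smo (0.71) and Snai2 (0.61). With the mean of all probe sets, Bcl2l11 (0.51), Cldn12 (0.45) and Trp53inp1 (0.60) did so. For both settings another probe set stood for, or was averaged into, the gene. The medians of 13 of 60 lists changed sign with centred arrays and 7 after quantile normalization, with the all-gene median at 0.37 and 0.03. No paired analysis was possible because the PDKC1 array carries no replicate number shared with the tumours. Intensities under 16, which were 16.9% of genes in the line and 11.5% and 10.7% in the tumours, limit how large a fold can be measured.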
